A study of Homo sapiens with 3 samples.

Results

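Cholesterol and fatty acid synthesis was followed through 33 genes in human cells that carry an inducible hairpin against HRD1. The genes were chosen by name, as known enzymes and regulators of both pathways, with earlier results of these data known. All 33 were found among the 58243 genes of the deposited tables. They comprise 19 enzymes of the sterol pathway (and relatives of such enzymes), 6 sterol regulators and 8 fatty acid genes. HRD1, encoded by SYVN1, is the ubiquitin ligase that marks misfolded proteins of the endoplasmic reticulum (ER) for degradation. The cells are labelled LoVo, a line from a colorectal carcinoma, and all 3 libraries come from the same engineered line with a short hairpin RNA under Tet-On control. Doxycycline at 1 µg/ml had been given for 0, 3 or 5 days, and the stated question was what the ER stress that follows HRD1 knockdown does to gene expression. Total RNA was sequenced once per day of treatment. No library of cells without the hairpin given doxycycline was analysed here, so effects of the drug and of the hairpin cannot be told apart.

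Cholesterol is built from acetyl-CoA by way of mevalonate, farnesyl diphosphate, squalene and lanosterol, in steps that run largely in the ER membrane. Fatty acid synthesis starts from the same acetyl-CoA, which is turned into malonyl-CoA, joined into palmitate, and then lengthened and desaturated. Genes of both pathways are targets of the SREBP transcription factors. When ER sterol is low, the escort protein SCAP carries SREBP to the Golgi for cleavage, and when sterol is high, INSIG proteins hold SCAP and SREBP in the ER. The ER degradation machinery is known to turn over INSIG and sterol enzymes.

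SREBP acts at promoters together with the factors NF-Y and Sp1, whose textbook core letters are CCAAT and GGGCGG. The RefSeq promoter windows of 4 members on GRCh38.p14 are printed here because their genes show the range of the data. MSMO1 had the highest day 5 ratio among the sterol enzymes, INSIG1 carries several motifs of the pathway, SREBF2 is the 1 member with the full sterol regulatory element among the 29 whose windows were searched, and EBPL had the lowest ratio of all members. Each window holds 250 bases before and 50 after the start of the gene, 5′ to 3′ on the strand of the gene. Capitals mark matches on either strand to those core letters, to the E-box (CACGTG), to the sterol regulatory element form (TCACNCCAC) or to the shorter form of that element (CACNCCAC).
MSMO1, chr4:165327419-165327718, plus strand: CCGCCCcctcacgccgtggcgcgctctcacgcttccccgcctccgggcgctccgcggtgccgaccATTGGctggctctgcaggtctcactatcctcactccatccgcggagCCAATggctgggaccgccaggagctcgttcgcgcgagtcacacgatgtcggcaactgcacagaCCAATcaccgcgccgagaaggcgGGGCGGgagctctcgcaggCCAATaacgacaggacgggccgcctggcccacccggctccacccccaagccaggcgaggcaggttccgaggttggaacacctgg
INSIG1, chr7:155297628-155297927, plus strand: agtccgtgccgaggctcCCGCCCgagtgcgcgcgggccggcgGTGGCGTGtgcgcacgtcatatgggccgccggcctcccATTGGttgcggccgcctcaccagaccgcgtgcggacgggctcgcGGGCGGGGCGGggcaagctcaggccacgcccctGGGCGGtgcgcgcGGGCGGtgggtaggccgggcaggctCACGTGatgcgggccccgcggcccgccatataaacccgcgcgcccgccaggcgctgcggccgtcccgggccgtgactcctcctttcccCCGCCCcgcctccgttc
SREBF2, chr22:41832855-41833154, plus strand: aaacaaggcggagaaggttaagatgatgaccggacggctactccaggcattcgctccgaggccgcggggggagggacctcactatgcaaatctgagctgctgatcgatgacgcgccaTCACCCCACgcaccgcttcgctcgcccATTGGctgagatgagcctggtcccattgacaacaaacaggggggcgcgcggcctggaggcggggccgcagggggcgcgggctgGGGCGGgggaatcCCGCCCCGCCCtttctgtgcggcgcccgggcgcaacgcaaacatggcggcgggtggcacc
EBPL, chr13:49691437-49691736, minus strand: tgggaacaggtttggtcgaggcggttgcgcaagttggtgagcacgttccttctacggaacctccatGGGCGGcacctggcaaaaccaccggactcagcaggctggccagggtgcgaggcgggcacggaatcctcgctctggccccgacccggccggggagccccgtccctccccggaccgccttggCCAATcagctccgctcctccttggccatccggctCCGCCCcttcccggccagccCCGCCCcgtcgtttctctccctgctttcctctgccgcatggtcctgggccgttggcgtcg

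The MSMO1 window holds 4 matches to CCAAT and 2 to GGGCGG, and that of INSIG1 holds 1 to CCAAT, 6 to GGGCGG, 1 to CACGTG and 1 to CACNCCAC. Matches can overlap: GGGCGG occurs in tandem in INSIG1 and SREBF2, and every TCACNCCAC contains CACNCCAC. The SREBF2 window holds TCACNCCAC once, and the EBPL window holds 1 match to CCAAT and 3 to GGGCGG. Promoter windows were found for 29 of the 33 members, all but ACAT2, FASN, SQLE and FDFT1, and these members have 41 windows. CCAAT on either strand was in the windows of 22 of 29 members, or 65.9% of their windows, against 34.6% of all 35116 windows of the same length. By gene, it was in windows of 75.9% of the matched members and 43.8% of the 9428 compared genes with a window. GGGCGG was in windows of 28 of 29 members, or 90.2% of their windows, against 45.0% of all windows and 66.6% of those of the compared genes. By gene, it was in 96.6% of the matched members and 77.9% of the compared genes. TCACNCCAC was in 2.44% of member windows, against 1.13% of all windows. CACNCCAC, a form searched after the data were seen, was in 17.1% against 5.87%, in ACACA, IDI1, INSIG1, SC5D, SCD and SREBF2. CACGTG was in INSIG1, LSS, SC5D and SCAP, or 13.8% of the matched members, near the 12.9% of the compared genes. A match describes letters only, and its absence says only that these letters are not in the window.

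The targeted gene itself, SYVN1, had values of 56.1, 30.4 and 27.0 normalised CPM (CPM, read counts scaled by TMM to a common library size) at day 0, day 3 and day 5. The libraries held 21308785, 22068686 and 25754188 gene reads, and with 1 library per day no difference had a replicate check, so no p-value was computed and the ratios describe these libraries, not the conditions. Ratios are log2 of normalised gene reads with exact 95% intervals in brackets, and these intervals cover counting error only. A gene was counted as higher or lower at 1.5-fold or more with an interval that excludes a ratio of 1 (0 on the log2 scale), among the 12593 genes that averaged at least 50 reads. All 33 members are among them. Defining genes of colon epithelium were near 0, against the label. Of 13 colon epithelial genes, 4, 3 and 2 had no read at day 0, day 3 and day 5, and the list summed to 1335, 1418 and 1300.2 TPM, nearly all from keratins. EPCAM stood at 0.724, 0.742 and 0.656 TPM, CDX1 and CDX2 had no read, whereas the mesenchymal filament gene VIM stood at 4016, 4130 and 3588 TPM. VIM is 1 of 9 mesenchymal genes listed. The other 8 summed to 145, 134 and 138 TPM, and 2 of the 9 had no read at day 0. KRT18, an epithelial keratin, stood at 728, 738 and 727 TPM. In bulk RNA, a change in the mix of cells and a change per cell cannot be told apart.

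The members varied widely in level at day 0, and their order is given per transcript length as the authors' TPM. FASN, the fatty acid synthase, was highest at 998 TPM, followed by SCD, the stearoyl-CoA desaturase, at 759 TPM and ACLY, which makes cytosolic acetyl-CoA from citrate, at 462 TPM. FDFT1, the squalene synthase, led the sterol enzymes at 286 TPM, ahead of FDPS at 256 TPM. TM7SF2, one of the sterol reductases, was lowest of all members at 2.91 TPM. The 33 genes together took 0.764%, 0.720% and 0.699% of gene reads at day 0, day 3 and day 5.

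**Figure D1:**
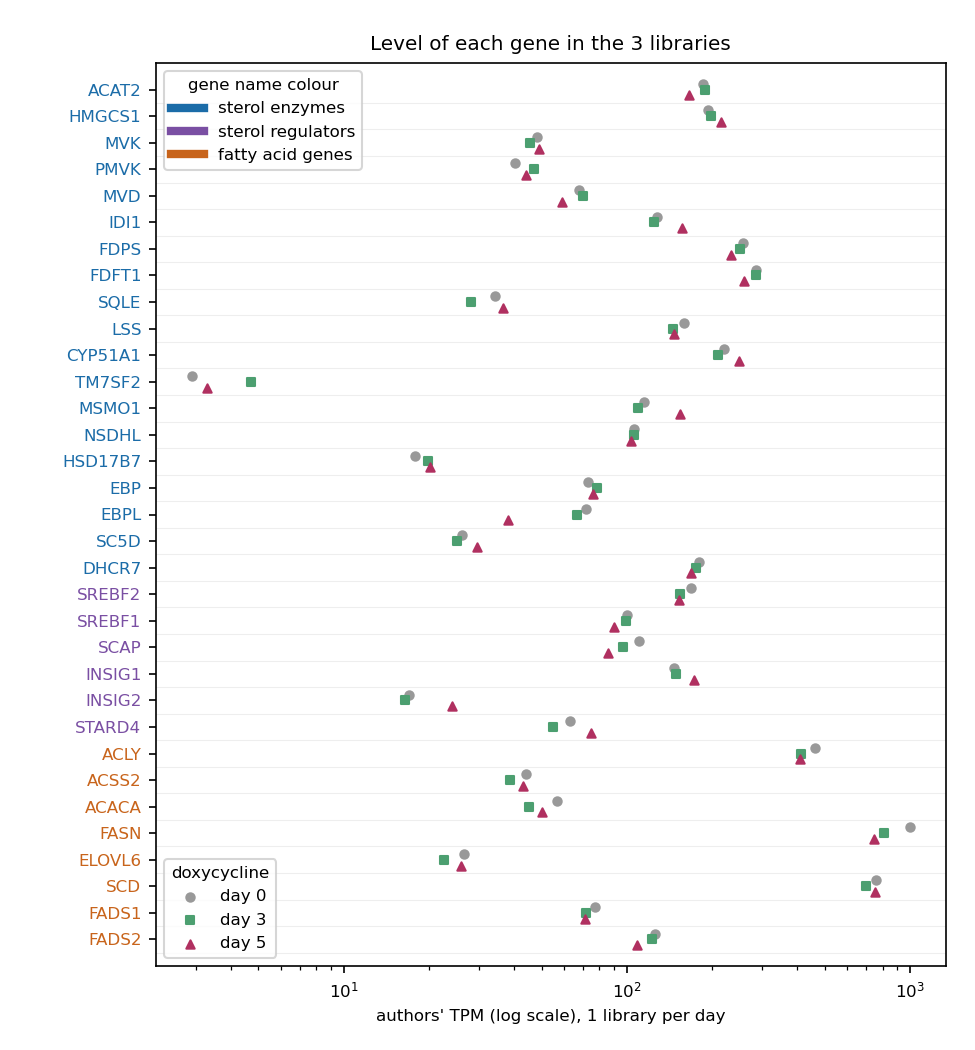
The authors' TPM of each of the 33 members (log axis) in the day 0 (circles), day 3 (squares) and day 5 (triangles) libraries, 1 library per day, with gene names coloured by group. Levels run from about 3 TPM for TM7SF2 to 998 TPM for FASN, and for most genes the 3 symbols lie close together while EBPL at day 5 stands apart to the left.

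At the 1.5-fold threshold, few members stood out from day 0. In day 3 over day 0, 1 of 33 members (TM7SF2) was counted as higher, where 1.29% of all compared genes were, and 0 were counted as lower, where 2.53% of genes were. For day 5 over day 0, 0 members were counted as higher, against a background of 1.76%, and 1 (EBPL) as lower, against 1.28%. For day 5 over day 3, 0 members were counted as higher, against 2.29% of all genes, and EBPL was again the 1 counted as lower, against 0.961%. All other members differed by less than 1.5-fold in each comparison. Smaller differences were still resolved by the depth. At day 3, 14 members had a ratio above 1 with an interval that excludes 1, where 25.2% of all compared genes did, and 4 were below in the same way, where 20.8% of genes were. At day 5 over day 0, 8 were above, against 22.8% of all genes, and 15 were below, against 22.4%. Between day 5 and day 3, 7 were above, against 24.0%, and 17 were below, against 26.1%. The 3 comparisons share libraries, so they are not independent views of the same gene.

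**Figure D2:**
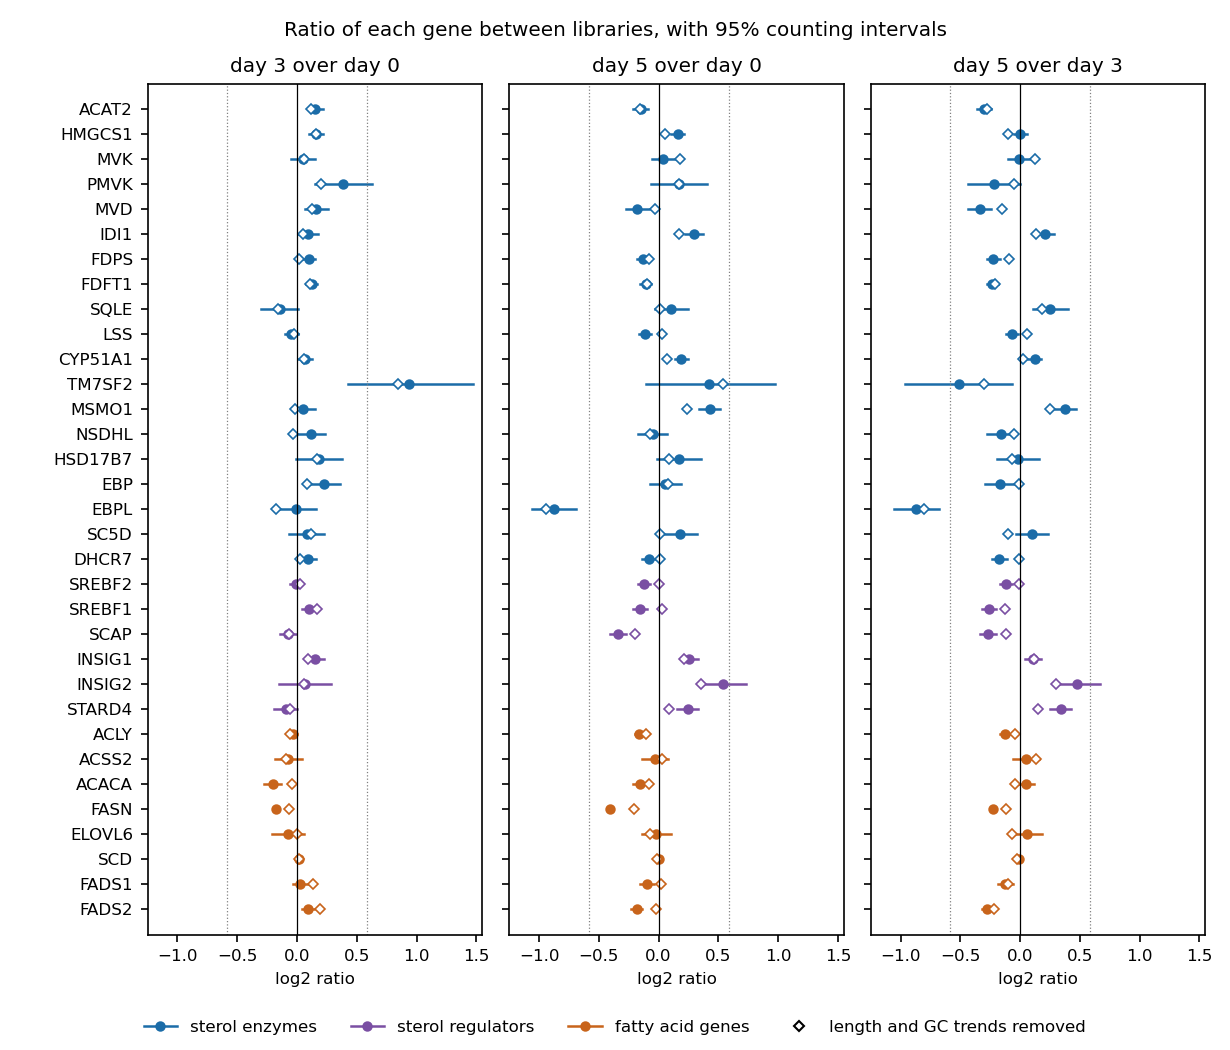
The log2 ratio of normalised gene reads of each member for day 3 over day 0, day 5 over day 0 and day 5 over day 3 (filled circles, with 95% counting intervals as bars), and the same ratio with length and GC trends removed (open diamonds). Dotted lines mark 1.5-fold, which TM7SF2 passes at day 3 at 0.93 and EBPL passes at day 5 at -0.87.

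In the first part of the sterol pathway, from acetyl-CoA to farnesyl diphosphate, all 7 enzymes had a ratio above 1 at day 3 over day 0, with a median log2 ratio of 0.15 against 0.01 for all compared genes. Of all compared genes, 52.0% lay above 1. With the authors' TPM, MVK, IDI1 and FDPS lay below 1 at day 3, at log2 ratios of -0.07, -0.04 and -0.03, where the median of all genes was -0.08. At day 5 over day 0 the 7 enzymes were divided, 4 above and 3 below, with a median of 0.04, where 51.2% of all genes lay above. HMGCS1, the synthase that makes HMG-CoA, had 217, 243 and 243 normalised CPM at day 0, day 3 and day 5. Its log2 ratio was 0.16 [0.10 to 0.22] at day 3 over day 0 and 0.16 [0.11 to 0.22] at day 5 over day 0, so both later libraries lay above day 0. With smooth trends on gene length and GC content removed these ratios were 0.16 and 0.06, and with the authors' TPM 0.04 and 0.15. IDI1, the isopentenyl diphosphate isomerase, had 108, 115 and 133 CPM, highest in the day 5 library. Its day 5 over day 0 ratio was 0.30 [0.22 to 0.37].

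The other enzymes of this stretch stood above day 0 at day 3 and were nearer to it or below it at day 5. ACAT2, the cytosolic thiolase that joins a pair of acetyl-CoA molecules, had 184, 204 and 166 CPM at the 3 days, highest at day 3 and lowest at day 5. Its log2 ratio was 0.15 [0.09 to 0.21] at day 3 over day 0 and -0.15 [-0.21 to -0.09] at day 5 over day 0. MVD, the mevalonate diphosphate decarboxylase, had 78.4, 87.6 and 69.2 CPM, in the same order. FDPS, which makes farnesyl diphosphate, had 226, 242 and 207 CPM, with ratios of 0.10 [0.04 to 0.15] at day 3 and -0.13 [-0.18 to -0.07] at day 5 over day 0. PMVK, the second mevalonate pathway kinase, was a shorter and less abundant gene with 259, 335 and 354 reads. It had the highest day 3 ratio of this stretch at 0.39 [0.15 to 0.63], and its interval held 1 at day 5 over day 0. MVK, the first of these kinases, had 73.3, 76.0 and 75.4 CPM, and its intervals held 1 in all 3 comparisons.

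Among the 12 genes from squalene onward, the median log2 ratio was 0.09 at day 3 and 0.08 at day 5 over day 0. FDFT1, which commits farnesyl diphosphate to sterols, had 350, 382 and 325 CPM at day 0, day 3 and day 5. Its ratio was 0.12 [0.08 to 0.17] at day 3 over day 0 and -0.11 [-0.15 to -0.06] at day 5 over day 0. SQLE, the squalene epoxidase and a known control point, had 34.3, 31.0 and 37.0 CPM, and its interval excluded 1 only for day 5 over day 3, at 0.25 [0.11 to 0.40]. LSS, which closes the sterol rings, had 286, 277 and 265 CPM, with a day 5 over day 0 ratio of -0.11 [-0.16 to -0.06], which was 0.03 [-0.02 to 0.08] with trends removed. CYP51A1, the lanosterol demethylase, had 206, 216 and 235 CPM from all reads.

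MSMO1 (ENSG00000052802, chr4:165327623-165343160 on GRCh38, plus strand) encodes the methylsterol monooxygenase that begins removal of the methyl groups of lanosterol. It had 1710, 1751 and 2798 reads, or 79.1, 82.0 and 107 CPM, at day 0, day 3 and day 5. The day 5 library stood above both others, with a ratio of 0.43 [0.34 to 0.52] over day 0 and 0.38 [0.29 to 0.47] over day 3, and the day 3 over day 0 interval held 1. Of its partners in this demethylation, NSDHL did not show that excess, at -0.05 [-0.17 to 0.07] for day 5 over day 0. HSD17B7 stood at 0.17 [-0.01 to 0.35] there, an interval that meets that of MSMO1. Over day 3 its ratio was -0.02 [-0.20 to 0.16]. NSDHL, the sterol dehydrogenase, had 49.5, 53.6 and 47.9 CPM, and HSD17B7, the keto-reductase, had 19.6, 22.3 and 22.0 CPM. Both had intervals that held 1 at day 3 and at day 5 over day 0. HSD17B7 also has a transcribed copy, HSD17B7P2, with 94, 85 and 128 reads.

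TM7SF2 (ENSG00000149809, chr11:65111845-65116384, plus strand), the reductase that acts after CYP51A1, was counted at 49, 93 and 80 reads in the 3 libraries. Its day 3 over day 0 log2 ratio of 0.93 [0.43 to 1.47] was the highest of all members, and its interval was the widest, with a lower end short of 1.5-fold. At day 5 over day 0 the ratio was 0.42 [-0.10 to 0.97], so that library could not be told from day 0 at this depth. The last steps varied less. EBP, the sterol isomerase, had 41.1, 48.1 and 42.7 CPM, with 0.23 [0.10 to 0.36] at day 3 and an interval that held 1 at day 5 over day 0. SC5D, the sterol desaturase, had 33.7, 35.6 and 38.2 CPM. DHCR7, the final reductase, which is mutated in Smith-Lemli-Opitz syndrome, had 174, 185 and 164 CPM.

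EBPL (ENSG00000123179, chr13:49660723-49691475, minus strand), a relative of EBP by sequence, was the member that differed most in the day 5 library. It had 594, 585 and 394 reads, or 27.5, 27.4 and 15.0 CPM, at day 0, day 3 and day 5. Day 0 and day 3 were alike within counting error, at -0.01 [-0.17 to 0.16], and day 5 stood at 54.6% of day 0, a log2 ratio of -0.87 [-1.06 to -0.69]. Day 5 over day 3 gave the same -0.87. With length and GC trends removed, the day 3 over day 0 ratio of EBPL was -0.17 [-0.34 to -0.01]. Its log2 ratio stayed between -0.94 and -0.85 for day 5 over day 0 in the 14 other settings tried. Those settings that alter only which genes are compared, or the interval rule, repeat the value by construction and add no support. EBPL reads in introns, which stem largely from unspliced RNA, numbered 62, 51 and 49 and gave -0.59 [-1.16 to -0.03]. EBP itself had a ratio of 0.06 [-0.07 to 0.18] in the same comparison.

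The 6 sterol regulators were divided at day 5, with 3 above and 3 below day 0 and all intervals excluding 1, where 22.8% and 22.4% of all genes were. With trends on length and GC content removed, 5 of 6 lay above and only SCAP below, but the intervals of SREBF1 and SREBF2 then held 1. The 2 INSIG genes, whose proteins retain SCAP in the ER, were both above. INSIG2 (ENSG00000125629, chr2:118088452-118110997, plus strand) had 352, 364 and 622 reads, or 16.3, 17.0 and 23.7 CPM. It was 1.45-fold higher at day 5 than at day 0, with an interval of 1.27 to 1.66, while day 3 could not be told from day 0. INSIG1, itself an SREBP target, had 127, 141 and 152 CPM, with ratios of 0.15 [0.07 to 0.22] at day 3 and 0.26 [0.19 to 0.33] at day 5 over day 0. STARD4, a sterol transfer protein, had 85.9, 80.3 and 102 CPM, lowest at day 3 and highest at day 5, where its ratio over day 0 was 0.24.

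The genes for SCAP and for the SREBPs lay on the other side at day 5. SCAP (ENSG00000114650, chr3:47413694-47477126, minus strand) had 169, 160 and 133 CPM at day 0, day 3 and day 5. Its ratio was -0.07 [-0.14 to -0.01] at day 3 and -0.34 [-0.41 to -0.27] at day 5 over day 0, so both later libraries were below day 0. SREBF2, whose SREBP mainly drives sterol genes, had 300.3, 299 and 275 CPM, and its day 5 over day 0 ratio was -0.12 [-0.17 to -0.08]. SREBF1, which encodes the SREBPs tied more to fatty acid genes, had 195, 210 and 175 CPM, highest at day 3 and lowest at day 5. These are transcript levels, and SREBP cleavage was not measured.

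In the fatty acid arm the median log2 ratio was -0.05 at day 3 and -0.12 at day 5 over day 0, and 7 of 8 genes were below 1 at day 5. Of these 8, 5 had an interval below 1 at day 5 over day 0 and 0 had one above, read against 22.4% and 22.8% of all compared genes. FASN (ENSG00000169710, chr17:82078333-82098332, minus strand) had 46671, 40859 and 42839 reads, or 2160.1, 1913 and 1632 CPM. Day 3 was below day 0 and day 5 below both, at 88.6% and 75.6% of the day 0 level. Intron reads of FASN gave -0.41 [-0.59 to -0.23] at day 5 over day 0, beside -0.40 [-0.42 to -0.39] from all its reads. Because FASN is so abundant, it weighs on any sum over the arm: the 8 genes summed to 2548, 2218 and 2206 TPM, and the 7 without FASN to 1550.4, 1411 and 1459 TPM. The 19 sterol enzymes summed to 2210.2, 2180 and 2204 TPM.

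The enzymes that supply and extend fatty acids differed less than FASN. ACLY had 559, 546 and 499 CPM at day 0, day 3 and day 5, with -0.16 at day 5 over day 0. ACACA, the acetyl-CoA carboxylase that makes malonyl-CoA, had 173, 150.3 and 156 CPM, lowest at day 3, where its ratio was -0.20 [-0.27 to -0.14]. With trends removed that ratio was -0.04 [-0.11 to 0.03]. ACSS2, which activates acetate, had 60.0, 57.0 and 58.9 CPM, and ELOVL6, which lengthens palmitate, had 45.7, 43.4 and 45.1 CPM. The intervals of ACSS2 and ELOVL6 held 1 in all 3 comparisons. SCD, the second most abundant member, was level across the libraries at 934, 942 and 935 CPM. Its day 5 over day 0 ratio was 0.00 [-0.02 to 0.03], an interval that does not meet that of FASN in the same libraries. FADS2, a desaturase of polyunsaturated fatty acids, had 326, 347 and 287 CPM, above day 0 at day 3 and below it at day 5. Its day 5 over day 0 ratio of -0.18 was -0.03 [-0.07 to 0.02] with trends removed.

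The sterol enzymes stood above the fatty acid genes in both comparisons with day 0 and below them in day 5 over day 3. The difference of the arm medians, sterol enzymes minus fatty acid genes, was 0.15 at day 3 over day 0, 0.18 at day 5 over day 0 and -0.10 at day 5 over day 3. Genes are not replicates, so no test of this difference was made. The sterol enzymes' own medians were 0.10, 0.06 and -0.16 in the 3 comparisons, beside -0.05, -0.12 and -0.07 for the fatty acid genes and 0.01, 0.01 and 0.00 for all compared genes. Among the 19 sterol enzymes, 16 lay above 1 at day 3 over day 0, 11 at day 5 over day 0 and 6 at day 5 over day 3, where 50.1% of all genes did. With the authors' TPM, 7 of 19 lay above 1 at day 3 over day 0 with a median of -0.03, and the fatty acid median at day 5 over day 3 was 0.05, where all genes had medians of -0.08 and 0.09. The spread within the sterol enzymes, -0.87 to 0.43 at day 5 over day 0, was wider than the gap between the arms.

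**Figure D3:**
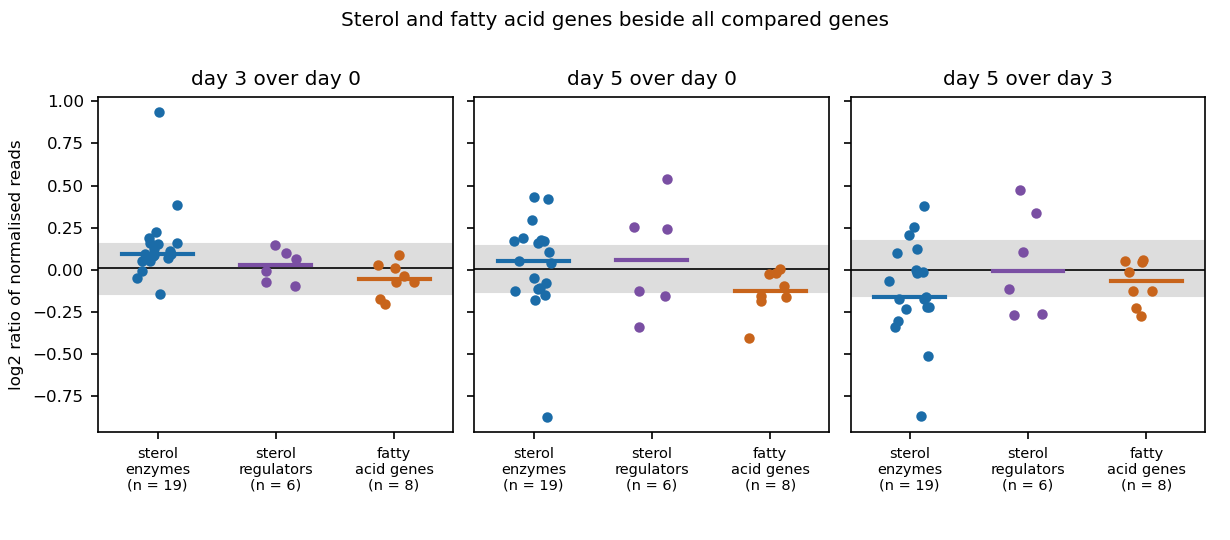
The log2 ratio of normalised gene reads for each member, grouped as sterol enzymes, sterol regulators and fatty acid genes, in the 3 comparisons between libraries. Short coloured bars are group medians, the black line is the median of all compared genes and the grey band holds their middle 50%. The sterol median of 0.10 at day 3 and the fatty acid median of -0.12 at day 5 over day 0 both lie inside that band. At day 5 over day 3 the sterol median of -0.163 lies just below the lower edge of the band, -0.157.

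The ratios also followed exon length, which differs between the arms, and GC content. Median GC content differed little, at 50.4% for the sterol enzymes and 53.1% for the fatty acid genes. The median exon length was 4124 bases for the sterol enzymes and 8330.5 bases for the fatty acid genes, and longer genes had lower day 3 over day 0 ratios, with a Spearman correlation across genes of -0.57 over the 33 members and -0.38 over 12487 genes. At day 5 over day 0 the ratio was lower for genes of higher transcript GC content, at -0.61 over the members and -0.43 over all genes, and at day 5 over day 3 at -0.76 and -0.54. Of the 16 members with a GC content under 51.6%, 8 had an interval above 1 at day 5 over day 0 and 4 one below. Of the 17 with more, 0 had one above and 11 one below. All compared genes were split in the same direction: 31.7% of those with the lower GC content were above and 11.6% below, against 9.43% above and 38.9% below among those with the higher.

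**Figure D4:**
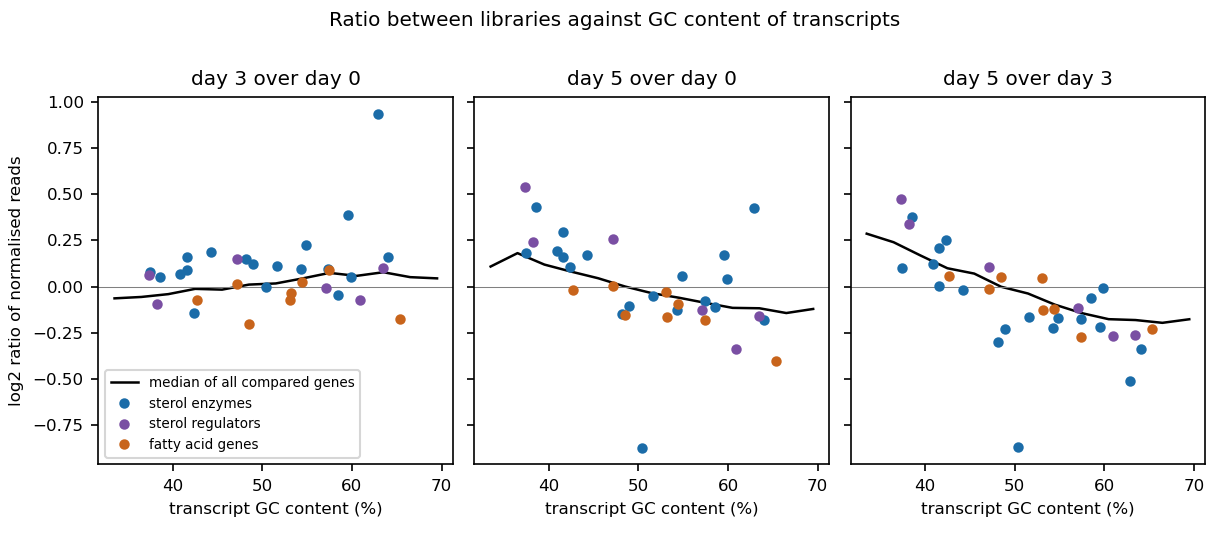
The log2 ratio of each member against the GC content of its transcripts in percent, for the 3 comparisons between libraries, with the median of all compared genes in bins of GC content as a black line. The line slopes down in both comparisons of the day 5 library, and most members lie near it, while EBPL at -0.87 lies far below.

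Once smooth trends on length and GC content were removed, the difference of arm medians was 0.08 at day 3 over day 0, 0.08 at day 5 over day 0 and 0.00 at day 5 over day 3. EBPL stood at -0.94 at day 5 over day 0 after this step, INSIG2 at 0.35, MSMO1 at 0.24, INSIG1 at 0.21, and SCAP and FASN at -0.20 each. SREBF1 and SREBF2 stood at 0.03 and 0.00, where their ratios before removal were -0.16 and -0.12. With the trends removed, 9 members were above and 8 below at day 5 over day 0, intervals excluding 1, where 18.2% of all genes were above and 17.6% below. The intervals of MVD, LSS, DHCR7, SREBF1, SREBF2, FADS1 and FADS2, which lay below 1 before, then held 1, so of the fatty acid genes FASN, ACACA and ACLY were below. At day 3 over day 0, 9 members were above and 4 below after removal, where 22.3% and 17.6% of all genes were, and PMVK, IDI1, FDPS, CYP51A1, EBP and DHCR7 were no longer above. FADS1 was newly above. Those below were then SQLE, EBPL, FASN and ACLY, where SCAP, STARD4, FASN and ACACA had been below before. The trends were fitted over all compared genes with both properties, and the members kept part of their own. Over the 33 members the Spearman correlation after removal was -0.44 with GC content at day 5 over day 3. At day 5 over day 0 it was -0.33 with exon length and -0.25 with GC content. At day 3 over day 0 these were -0.09 and 0.14. Whether the trends arose in the cells or in library preparation was not tested.

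Reads that fit more than 1 place make a few members uncertain. Uniquely placed reads were 13.5% for CYP51A1, 34.9% for FADS1, 45.5% for IDI1 and 79.3% for HMGCS1. For CYP51A1 the day 5 over day 0 ratio was 0.19 [0.14 to 0.25] from all reads and -0.34 [-0.50 to -0.19] from uniquely placed reads, so its direction is not settled. The gene model LRRD1 overlaps CYP51A1 on the same strand. FADS1, a desaturase that works beside FADS2, overlaps FADS2 on the opposite strand, and the labels do not say that counting used strand. FADS1 had 182, 185 and 170 CPM from all reads, with a day 5 over day 0 ratio of -0.10 from all reads and -0.34 [-0.45 to -0.24] from uniquely placed reads. For IDI1 the uniquely placed reads gave 0.31 at day 5 over day 0, and for HMGCS1 they gave 0.12 [0.06 to 0.18]. Without the genes that had under 90% uniquely placed reads, the sterol median at day 5 over day 0 was -0.00.

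Intron reads, a small part of the same libraries, could be compared for 21 members. At day 3 over day 0 the intervals of 18 held 1, and LSS at -0.42 [-0.63 to -0.21], SREBF2 at -0.42 [-0.75 to -0.11] and STARD4 at -0.69 [-1.24 to -0.17] were below. At day 5 over day 0 FDFT1 was above at 0.39 [0.15 to 0.64], although its full read count gave -0.11, and EBPL, FASN and SREBF1 were below. SREBF1 introns gave -0.34 [-0.60 to -0.07]. Of the 21 members, 0 had an intron interval above 1 at day 3 over day 0. Shares of all genes with intron intervals above or below 1 are not given here, so these counts have no background.

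Other genes of lipid metabolism, from lists chosen with results of these data known, were read in the same way. Their counts stand beside the shares of all compared genes, 25.2% above and 20.8% below at day 3 over day 0 and 22.8% above and 22.4% below at day 5 over day 0. Of 11 genes that process SREBP or degrade sterol proteins, 1 was above and 1 below at day 3 over day 0, intervals excluding 1, and 1 was above and 2 below at day 5 over day 0. At day 3 these were RNF139, an ER ubiquitin ligase, with 207, 267 and 235 reads and a ratio of 0.38 [0.12 to 0.65], and MBTPS2, the protease of the final SREBP cleavage, at -0.23 [-0.38 to -0.08]. Of 12 genes of the isoprenoid branch, which starts from farnesyl diphosphate, 5 were above and 0 below at day 3 over day 0, and 3 were above and 1 below at day 5 over day 0. Those above at day 3 include both subunits of the Rab prenyltransferase, RABGGTA and RABGGTB, at 0.34 each. In the LXR list, 3 of 7 compared genes were above and 0 below at day 3 over day 0. Among them were the sterol-sensing receptor gene NR1H3 at 0.49 [0.14 to 0.84] and the cholesterol exporter gene ABCA1 at 0.30 [0.08 to 0.53]. At day 5 over day 0 all 7 intervals held 1.

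Of 11 compared genes of sterol storage and transport, 3 were above and 2 below at day 3 over day 0, and 3 were above and 4 below at day 5 over day 0. NPC2, a lysosomal cholesterol carrier, had 63.8, 83.4 and 72.9 CPM, above day 0 in both later libraries. GRAMD1A, a sterol transfer protein at ER contacts, had 27.6, 24.3 and 20.9 CPM, below day 0 in both. Of 18 further fatty acid genes, 4 were above and 1 below at day 3 over day 0, and 6 were above and 4 below at day 5 over day 0. SLC25A1, which exports the citrate that ACLY uses, had 136, 148 and 105 CPM, and its day 5 over day 0 ratio of -0.38 [-0.45 to -0.30] was near that of FASN. Both are GC-rich, at 66.2% for SLC25A1 and 65.3% for FASN. With trends on length and GC content removed their ratios were -0.27 and -0.20. HACD1, a dehydratase of fatty acid elongation, had 0.33 [0.17 to 0.50].

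Of 15 genes of glycerolipid synthesis, 3 were above and 2 below at day 3 over day 0, and 2 were above and 6 below at day 5 over day 0. LPIN1, a phosphatidate phosphatase, was above at 0.35 [0.28 to 0.42]. DGAT2, a triglyceride synthase, was low in all libraries, with 92, 97 and 78 reads, and passed 1.5-fold in day 5 over day 3 at -0.61 [-1.06 to -0.17]. Among 15 compared genes of fatty acid oxidation, 7 were above and 2 below at day 3 over day 0, and 2 were above and 4 below at day 5 over day 0. Between day 5 and day 3, 0 were above and 4 below, where 24.0% and 26.1% of all compared genes were. PPARA, a receptor that controls these genes, had 20.6, 14.3 and 16.3 CPM, below day 0 in both later libraries. PPARGC1A, a coactivator of the same programme, had 42, 68 and 74 reads, and passed 1.5-fold at day 3 over day 0 at 0.71 [0.14 to 1.30].

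The day 5 library also held reads of genes of other tissues, some of which make lipids. Of 20 liver genes, 10, 9 and 0 were without a read at day 0, day 3 and day 5, and ALB had 0, 0 and 114 reads. The liver list summed to 804, 670 and 746 TPM, of which SERPINA1 alone had 799, 664 and 693 TPM. Without SERPINA1 the other 19 liver genes summed to 5.23, 5.59 and 52.8 TPM, highest at day 5. Of 10 small intestine genes, 10, 9 and 2 were without a read, and the list summed to 0, 3 and 108 reads. Of 8 blood genes, 4, 1 and 0 were without a read, with sums of 5, 48 and 145 reads. The part of these reads in the members' values was not tested.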

How the data were processed

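RNA-seq was analysed from 3 libraries of 1 engineered line, 1 for each of 0, 3 and 5 days of doxycycline. RNAiso Plus served for extraction and a SMARTer mRNA kit for the libraries, per the labels' protocols. Per the file headers, the deposited tables give read counts per gene (unique, total, exon and intron reads) and the authors' TPM. The aligner is not given in the sources used here, nor is the counter, and nothing states that counting used strand. The submitters' processing notes name mm10, a mouse build, but the identifiers are human. Of the 57980 found in GENCODE 29, 97.6% match it in start and end on GRCh38, as do 31 of 33 members, so coordinates are on GRCh38. The 3 sample columns of a further table were not used.

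Deposited counts were scaled with TMM (edgeR 4.0.16, R 4.3.3). Ratios used a prior count of 0.5 and exact conditional (Clopper-Pearson) 95% intervals, in Python 3.11.15 with scipy 1.17.1. A limit of 3 reads corresponds to 0.139, 0.140 and 0.114 CPM. TPM served for levels between genes and as an alternative with 0.5 added. Trends on exon length and GC content (GENCODE 29 transcripts, 12487 genes) were removed by lowess (statsmodels 0.14.6, span 0.3, 3 rounds). Ratios, intervals and trend removal were tested on simulated counts.

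Members and gene lists were chosen with earlier results of these data known. Named were all members, SYVN1, marker genes with the highest level (others after their values were seen) and, from each pathway list, the genes past 1.5-fold in any comparison and also the 2 with the largest ratio over day 0. Promoters are RefSeq windows on GRCh38.p14, matched by symbol. Protein identities were not computed. Alternatives were library totals, DESeq2 1.42.0 size factors, TPM, exon or unique reads, a prior of 5, no minimum or one of 10 or 200 reads, no mitochondrial or 20 most abundant genes, protein-coding genes, an interval excluding 1.5, trends removed, and a unique share of at least 90%.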

Additional observations from a re-analysis of the deposited data

How the results depend on the processing

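No paired analysis was possible because each day has 1 library, and for the same reason no replicate could be left out. Under the alternatives, 240 values of the group medians, arm differences and counts of members stayed within a margin for counting error (counts within 1.5 times). Another 15 moved beyond it. Some medians changed sign, such as that of the sterol enzymes at day 3 over day 0, from 0.096 to -0.0269 with the authors' TPM. A value inside the margin could also change sign. The arm difference at day 5 over day 3 went from -0.0952 to 0.002 with trends removed. Many of the 240 could not move and add no support. A lower or no read minimum and the limit to protein-coding genes left out no member, so they repeat the reported values by construction. The interval rule cannot alter a median or an arm difference. Another scaling of the libraries shifts both arms alike, so it leaves their difference nearly unchanged. The cause of the moves was not tested, except where stated. With library totals, the median log2 ratio of the fatty acid genes was -0.12 at day 3 over day 0 and 0.0073 at day 5 over day 3, and that of the regulators at day 5 over day 3 was 0.0706. With the authors' TPM, whose median over all genes was -0.08 at day 3 over day 0 and 0.09 at day 5 over day 3, the medians of sterol enzymes, regulators and fatty acid genes were -0.0269, -0.0861 and -0.18 at day 3 over day 0 and -0.0323, 0.10 and 0.0492 at day 5 over day 3. With trends removed, the fatty acid median at day 5 over day 0 was -0.0505 and the sterol median at day 5 over day 3 was -0.0523. With genes of at least 90% uniquely placed reads, the fatty acid median at day 5 over day 3 was -0.0109. Members counted as higher at day 3 over day 0 numbered 0 with a minimum mean of 200 reads, which leaves TM7SF2 out, and 0 with an interval excluding 1.5; members counted as lower at day 5 over day 3 numbered 2 with exon reads. The difference of arm medians ranged from 0.08 to 0.18 at day 3 over day 0, 0.08 to 0.20 at day 5 over day 0 and -0.16 to 0.00 at day 5 over day 3. The depth resolves small ratios for abundant genes such as FASN, but for TM7SF2 and PMVK the intervals span a wide range, and no depth replaces a second culture.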
